A study of Mus musculus with 19 samples.

Results

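The genes of collagens, laminins and integrins were examined in mouse induced pluripotent stem cells (iPSC), embryonic stem cells (ESC) and epiblast stem cells (EpiSC). Members were taken by symbol alone, as every collagen chain (Col), every laminin chain (Lama, Lamb, Lamc) and every integrin alpha or beta chain (Itga, Itgb) listed in the count tables. This gave 81 of 23420 genes, of which 44 encode collagen chains, 11 laminin chains, 18 integrin alpha chains and 8 integrin beta chains. The study asked whether iPSC of mouse strains that resist reprogramming resemble ESC or EpiSC, and sequenced RNA of 14 iPSC, 3 ESC and 2 EpiSC cultures, with 1 library each. The iPSC came from embryonic fibroblasts (MEF) carrying a lentivirus for Oct4, Klf4, Sox2 and Myc that was not removed, and were at passage 16 to 31. NOD/ShiLtJ (NOD) and WSB/EiJ (WSB) iPSC were derived and kept in 2iS, a serum and LIF medium with inhibitors of GSK3B and MEK, with 2 male and 2 female clones of each strain. From 129S1/SvImJ (129) there were 2 male and 2 female clones in ESC/LIF medium without the inhibitors, and the 2 male clones (1 and 17) again after a move to 2iS. The ESC were 1 male line each of 129, NOD and WSB at passage 6, grown in serum, LIF and both inhibitors. The EpiSC were 1 male line of NOD at passage 38 and 1 of a 129/Sv background at passage 16, kept in EpiSC medium. All lines are single clones, so strain and clone cannot be told apart within the ESC, nor strain, clone and passage within the EpiSC. The ESC and EpiSC were provided by other laboratories, and the ESC were at passage 6 and the iPSC at 16 to 31. Cell state, source and passage therefore cannot be told apart between iPSC and ESC. The iPSC were depleted of MEF before harvest.

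Collagens are triple helices of 3 alpha chains. Types I, III and V build fibrils made mostly by fibroblasts and other mesenchymal cells, while type IV forms the sheet of basement membranes together with laminins. Laminins are trimers of an alpha, a beta and a gamma chain and are among the earliest matrix proteins of the embryo. Integrins are receptors of an alpha and a beta chain that bind these proteins and link them to the actin skeleton. Itgb1, the beta chain shared by most receptors for laminin and collagen, is needed for the early mouse embryo.

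The low number of pairs counted on genes limited what could be read. The 19 libraries had 6082886 to 16307859 uniquely aligned pairs. In the 17 libraries other than NOD male iPSC, 92996 to 226794 read pairs were counted on genes, which was 1.15% to 1.74% of the uniquely aligned pairs, while the NOD male iPSC had 430173 and 567432, or 5.59% and 5.62%. A count of 3 was equal to 13.2 to 32.3 counts per 1000000 gene counts (CPM) in the 17 and 5.29 and 6.97 in the NOD males, before the TMM factors that the levels per gene include. Genes with exons on the strand opposite to another gene's exons made up 24.6% of the annotated genes, but took 61.3% to 76.8% of the counts in the 17 libraries and 38.3% and 38.8% in the NOD males. The library kit kept the strand, and the strand setting of the counting is not given in the sources used here. A gene's reads and those of an opposite-strand neighbour may therefore be mixed, and the part of this in any value was not tested. Of the 81 members, 19 (23.5%) have such an overlap. Titles and source names gave different conditions in 19 of the 19 libraries. The titles were used, under which the 8 naive pluripotency markers summed to 1188 to 2194 CPM in the 12 iPSC other than NOD males, 887 to 1665 CPM in ESC and 36.3 and 38.2 CPM in EpiSC. The 8 primed epiblast markers summed to 613 and 688 CPM in EpiSC, 70.0 to 237 CPM in those iPSC and 128 to 390 CPM in ESC. Both sums set EpiSC apart but overlapped between iPSC and ESC, and they do not bear on the labels of strain, sex or medium. As in the study, NOD male iPSC were kept out of comparisons with ESC and EpiSC.

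Members took 0.124% to 0.383% of a library's counts, or 123 to 560 counts in the 17 libraries and 1180 and 1617 in the NOD males. At least 1 count was seen for 70 of the 81 members, in 26 to 49 members per library, and 12 members had a count in all 19. The 11 members with 0 counts throughout were Col19a1, Col25a1, Col28a1, Col6a6, Col9a1, Itga2, Itgax, Itgb2, Itgb6, Itgb8 and Lamc3. Itgb2 and Itgax are chains of leukocyte integrins. A further 18 members had between 1 and 9 counts over all libraries together, among them Col4a6 with 3, and so could not be compared. Lama5, the alpha chain of laminin-511, held 18% of the 7920 member counts and Lamc1, the gamma chain of most laminins, 14.5%, but 956 of the 1425 Lama5 counts came from the 2 NOD male libraries. In the other 17 libraries Col9a3 had 610 counts, Lamc1 602, Lama5 469 and Col18a1, a basement membrane collagen, 415.

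Per kilobase of exon, the highest median level over the 19 libraries was that of Col9a3, a chain of cartilage collagen IX, at 53.4 CPM per kb (lowest 0.916, highest 165). Of its partner chains, Col9a2 had 41 counts in all on 3095 bp of exon and Col9a1 had 0 on 5068 bp, against 628 on 3853 bp for Col9a3. Exons of Col9a3 overlap those of Tcfl5 on the opposite strand over 234 bp. Lamc1 followed with a median of 27.2 CPM per kb, Itgb1 with 24.9, Col18a1 with 18.3, Lama5 with 17.09 and Itgae with 14.7. The ranges of Lamc1 (11.1 to 56.5 CPM per kb), Itgb1 (8.57 to 139), Col18a1 (4.98 to 52.1) and Lama5 (9.92 to 60.8) overlapped. They span strains, media and cell states, so the order of the medians need not hold in each library, and it was not tested. Itgae, the alpha chain that pairs with beta 7 and binds E-cadherin, spans Haspin on the opposite strand, and Col18a1 spans Slc19a1 on the opposite strand, in both cases without a shared exon.

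**Figure D1:**
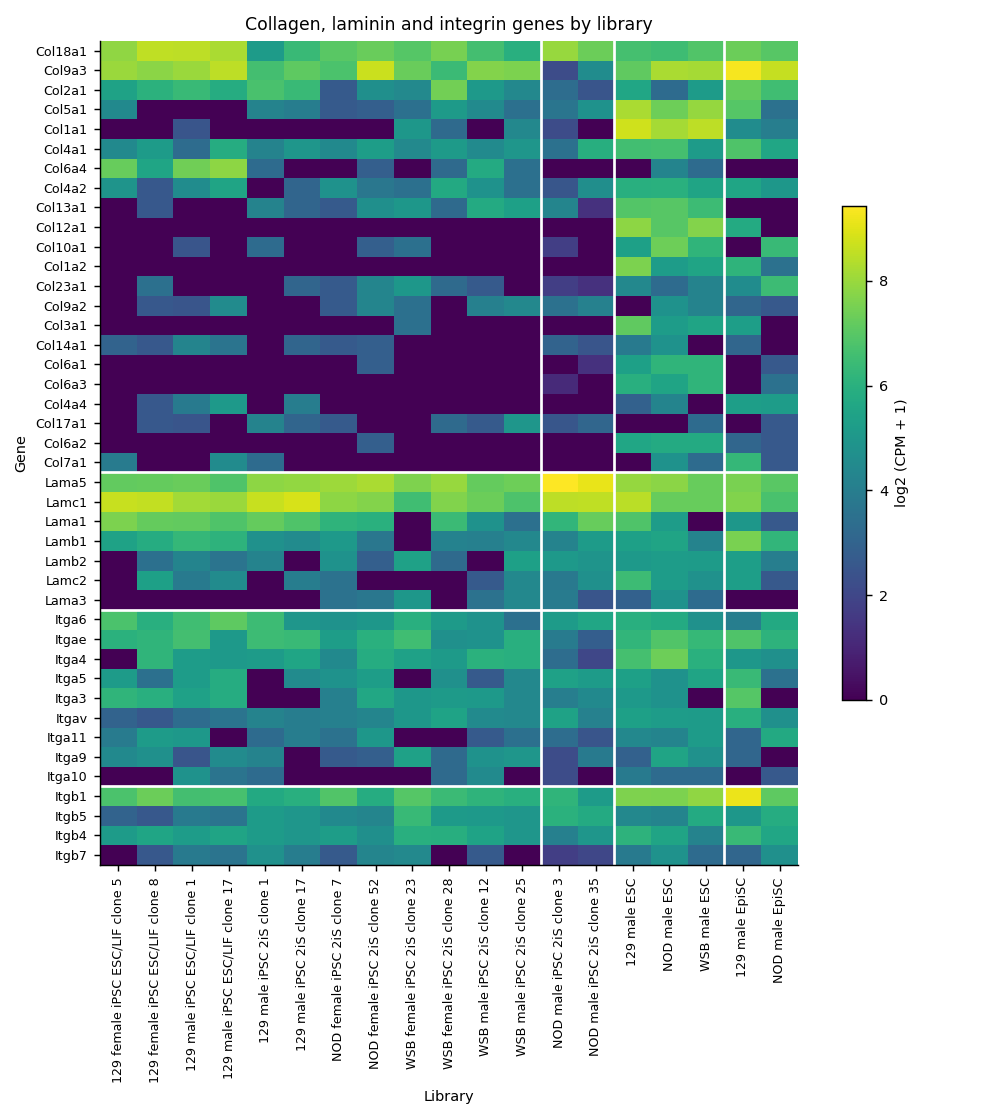
Level of the 42 members with at least 20 counts over all libraries, as log2 of CPM plus 1 (colour), with genes in rows grouped into collagens, laminins, integrin alpha and integrin beta chains and the 19 libraries in columns grouped into iPSC, NOD male iPSC, ESC and EpiSC. Col1a1, Col12a1 and Col5a1 are bright in the 3 ESC, and the laminin rows Lama5 and Lamc1 are bright in every column.

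Promoter sequences are shown for the members called lower in iPSC than in both ESC and EpiSC (adjusted p under 0.05) that have a promoter window. Their values overlapped between iPSC and EpiSC, and the calls of Itgb1 and Col4a1 against ESC did not hold with some ESC left out. Col4a2 was added because it shares its promoter with Col4a1. The windows are 300 bases long (250 before and 50 after the start, RefSeq, GRCm38.p6), given 5′ to 3′ on the gene's own strand, and capitals mark a CCAAT box, a GC box (letters GGGCGG) or a TATA box (letters TATAAA), each read on both strands, with no overlaps in these windows. Col4a1 (chr8:11312777-11313076, minus strand) and Col4a2 (chr8:11312555-11312854, plus strand) encode the main chains of collagen IV and are transcribed away from each other. Their windows share 78 bases and their annotated ends overlap by 22 bases. Itgb1 lies at chr8:128685404-128685703, Col5a1 at chr2:27886175-27886474 and Col10a1 at chr10:34389731-34390030, all on the plus strand.
Col4a1: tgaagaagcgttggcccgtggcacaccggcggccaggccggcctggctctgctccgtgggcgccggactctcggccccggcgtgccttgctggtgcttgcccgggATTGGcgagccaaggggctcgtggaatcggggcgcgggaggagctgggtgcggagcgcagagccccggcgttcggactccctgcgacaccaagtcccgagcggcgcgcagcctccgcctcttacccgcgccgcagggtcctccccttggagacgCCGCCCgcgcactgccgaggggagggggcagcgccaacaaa
Col4a2: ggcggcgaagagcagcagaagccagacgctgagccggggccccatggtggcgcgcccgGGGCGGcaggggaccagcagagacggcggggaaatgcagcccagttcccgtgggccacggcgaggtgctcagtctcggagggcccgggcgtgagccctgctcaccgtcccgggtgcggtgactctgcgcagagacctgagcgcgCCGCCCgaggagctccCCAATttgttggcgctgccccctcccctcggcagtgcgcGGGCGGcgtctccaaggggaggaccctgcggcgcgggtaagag
Itgb1: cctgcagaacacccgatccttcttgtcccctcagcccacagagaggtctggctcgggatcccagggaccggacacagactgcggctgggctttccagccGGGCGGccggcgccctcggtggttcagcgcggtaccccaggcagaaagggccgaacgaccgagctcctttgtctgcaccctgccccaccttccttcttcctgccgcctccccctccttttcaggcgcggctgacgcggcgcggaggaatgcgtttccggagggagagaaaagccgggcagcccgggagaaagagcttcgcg
Col5a1: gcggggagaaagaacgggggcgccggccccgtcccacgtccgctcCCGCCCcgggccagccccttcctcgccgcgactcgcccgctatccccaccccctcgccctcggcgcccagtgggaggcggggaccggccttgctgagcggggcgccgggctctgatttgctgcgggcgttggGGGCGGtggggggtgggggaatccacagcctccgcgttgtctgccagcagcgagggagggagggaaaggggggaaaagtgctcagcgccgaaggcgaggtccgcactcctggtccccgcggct
Col10a1: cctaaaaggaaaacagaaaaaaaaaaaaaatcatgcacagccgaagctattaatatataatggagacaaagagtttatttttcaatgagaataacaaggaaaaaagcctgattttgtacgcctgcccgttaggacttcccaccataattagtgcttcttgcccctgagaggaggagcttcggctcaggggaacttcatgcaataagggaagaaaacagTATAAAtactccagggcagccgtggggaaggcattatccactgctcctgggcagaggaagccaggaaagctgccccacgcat
Col4a1 holds 1 CCAAT box and 1 GC box, Col4a2 holds 1 CCAAT box and 3 GC boxes, Itgb1 holds 1 GC box, Col5a1 holds 2 GC boxes and Col10a1 holds 1 TATA box. Windows were matched for 58 of the 81 members (64 windows). A GC box was present in 54.7% of the member windows and in 35.7% of all 32851 windows, a CCAAT box in 26.6% and 37.4%, and a TATA box in 7.81% and 13.6%. These matches describe the letters only.

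The chains Col1a1 and Col5a1 of fibrillar collagens and the fibril-associated Col12a1 were at 34.4 CPM or less in all 12 iPSC and at 125 CPM or more in every ESC. The 12 iPSC, 3 ESC and 2 EpiSC were compared in 1 fit of edgeR's quasi-likelihood test over 3986 genes, with Benjamini-Hochberg adjusted p-values, and 18 of the 81 members had counts enough to be tested (10 collagens, 4 laminins, 4 integrins). The filter keeps genes that are high in a single group, so these 18 do not stand for all members. In iPSC against ESC 7 members were called lower at an adjusted p under 0.05 and 0 higher, beside 6.22% of all genes tested, 5.22% lower and 1.00% higher. The median log2 difference was -0.39 over the 18 members and 0.05 over all genes. All p-values measure the spread between these single libraries, which is not known to be biological.

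Col1a1, the main chain of collagen I, stood at 430 CPM in the 129 ESC, 287 in the NOD ESC and 364 in the WSB ESC, while the 12 iPSC ranged from 0 to 30.7 CPM with a median of 0. The groups did not overlap, and the only iPSC above 5 CPM were WSB clones 23, 25 and 28. The log2 fold change of iPSC over ESC was -6.20 (SE 0.47, adjusted p = 3.66e-08). Col5a1, which sets the width of collagen I fibrils, had 302.2, 161 and 248 CPM in the 129, NOD and WSB ESC and 0 to 34.4 CPM in iPSC (median 10.2). Again no iPSC reached an ESC, with a log2 fold change of -4.33 (SE 0.51, adjusted p = 9.19e-06). Exons of Col5a1 overlap 2810430I11Rik and Gm13372 on the opposite strand over 212 bp. Col12a1, a collagen that attaches to fibrils, had 228, 125 and 204 CPM in the 129, NOD and WSB ESC and 0 counts in all 12 iPSC. Against the floor of 3 counts over the 12 iPSC this was at least 110-fold lower (edgeR adjusted p = 0.000283), although DESeq2's Wald test gave an adjusted p of 0.0597.

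The other members called lower than in ESC were Col10a1, Col13a1, Itgb1 and Col4a1. Col10a1, a collagen of hypertrophic cartilage, had 40.3, 161 and 71.0 CPM in the 129, NOD and WSB ESC and at most 10.2 CPM in iPSC, with a log2 fold change of -4.85 (SE 0.81, adjusted p = 0.000405). Exons of Col10a1 overlap those of Nt5dc1 on the opposite strand over 18 bp, and the part of Nt5dc1 reads in its counts was not tested. Col13a1, a collagen held in the cell membrane, had 121, 125 and 88.7 CPM in those ESC and 0 to 54.1 CPM in iPSC (log2 fold change -2.77, SE 0.66, adjusted p = 0.0135). Both sets of values were apart. Itgb1 had 195, 188 and 231 CPM in the ESC and 52.5 to 158 CPM in iPSC (median 91.0), a log2 fold change of -1.17 (SE 0.34, adjusted p = 0.0417), also without overlap. Col4a1 overlapped, with 94.0, 98.6 and 35.5 CPM in ESC and 9.14 to 56.5 CPM in iPSC (log2 fold change -1.49, SE 0.43, adjusted p = 0.0384). The calls of Col13a1, Itgb1 and Col4a1 did not hold when some of the ESC were left out. Without the 129 ESC or without the NOD ESC, 4 members remained past the threshold, and Col13a1 (-2.71 and -2.69), Col4a1 (-1.29 and -1.29) and Itgb1 (-1.21 and -1.23) were not among them, while without the WSB ESC Itgb1 (-1.09) was lost. Itgb1 and Col4a1 also missed the threshold with uniquely aligned pairs as library size (adjusted p = 0.105 and 0.0862) and without the 129 male iPSC in 2iS (adjusted p = 0.0739 and 0.0635), which are clones 1 and 17 a further time, so that the 12 iPSC are 10 clones.

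Of the chains of collagens I, III, V and VI, 9 were too sparse for the test, and 7 of these had more counts in the 3 ESC than in the 12 iPSC. Col1a2, the second chain of collagen I, had 28, 4 and 5 counts in the 129, NOD and WSB ESC and 0 in the 12 iPSC together. Col3a1, which joins collagen I in soft tissue, had 21, 4 and 5 counts in the same ESC and 1 in the iPSC. Col5a2 and Col5a3, partners of Col5a1, had 12 and 4 counts over the 3 ESC and 0 in the iPSC, and Col5a3 had 6 in the NOD male iPSC. For the collagen VI chains Col6a1, Col6a2 and Col6a3, the 3 ESC held 22, 19 and 22 counts and the 12 iPSC 1, 1 and 0. Col6a5 went the other way, with 2 counts in the ESC and 8 in the iPSC, and Col6a6 had 0 throughout. With no filter on low counts, 18 of 69 members (26.1%) were called against ESC, 17 of them lower, beside 3.57% of all 16808 genes.

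The 12 fibroblast markers are given beside these genes. They summed to 1380 to 1927 CPM in ESC, 355 to 1024 CPM in the 12 iPSC and 161 and 909 CPM in EpiSC, most of it from Fn1 and Sparc, which other cells also express. Thy1, Postn, Prrx1 and Ccdc80 had 10, 18, 8 and 46 counts in the 3 ESC and 0 in the 12 iPSC, while Lum had 1 and 13, Pdgfra 0 and 1 and Dcn 0 and 2. Of the 3 fibroblast markers tested, Ccdc80 was called (adjusted p = 0.000963), and Fn1 (-1.16, adjusted p = 0.0721) and Sparc (-0.81, adjusted p = 0.367) missed the threshold. The iPSC had been depleted of MEF, and the sources used here do not say so for the ESC. The part of MEF in the collagen differences was not tested, and in bulk RNA fewer cells of a type and less RNA per cell cannot be told apart. The 8 markers of extraembryonic endoderm, a tissue rich in laminin and collagen IV, were at 0 to 13.4 CPM in ESC, 0 to 35.0 CPM in iPSC and 0 and 76.4 CPM in EpiSC.

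**Figure D2:**
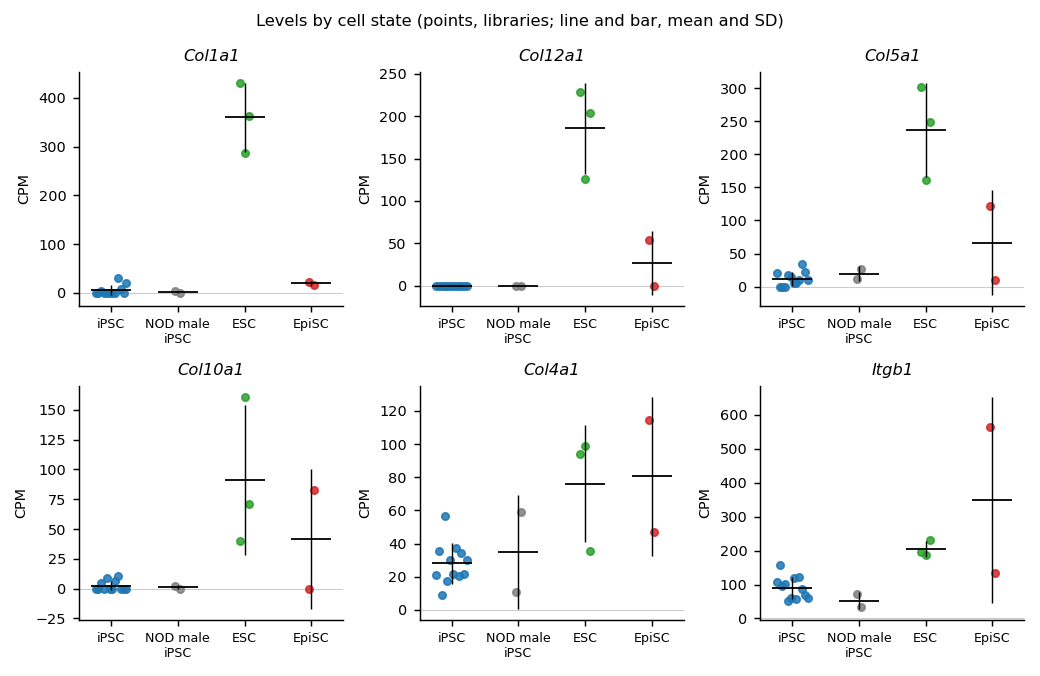
Level in CPM (vertical axes, linear) of 6 members in 12 iPSC (blue), 2 NOD male iPSC (grey), 3 ESC (green) and 2 EpiSC (red), with 1 point per library, the mean as a line and the SD as a bar. Col1a1 lies between 287 and 430 CPM in ESC and at or under 30.7 CPM in iPSC, and the EpiSC points of Itgb1 lie at 135 and 565 CPM.

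Against EpiSC, 7 of the 18 members were called lower in iPSC and 0 higher, beside 28.3% of all genes, of which those called higher were 11.2% of all genes, and the median log2 difference was -0.76 over the members and 0.10 over all genes. The iPSC libraries are the same as in the comparison with ESC. Itgb1 had 565 CPM in the 129 EpiSC and 135 in the NOD EpiSC, against 52.5 to 158 CPM in iPSC. The NOD line fell inside the iPSC range, and the log2 fold change was -1.89 (SE 0.36, adjusted p = 0.000473). Lamb1, the beta chain of laminin-111, had 183 and 72.7 CPM in the 129 and NOD EpiSC and 0 to 77.7 CPM in iPSC (median 24.4), with a log2 fold change of -1.86 (SE 0.54, adjusted p = 0.0133). Col4a1 had 115 and 46.7 CPM in those EpiSC and a log2 fold change of -1.51 (SE 0.48, adjusted p = 0.0221). Col9a3 had 634 and 389 CPM against 86.0 to 411 CPM in iPSC, where NOD female clone 52 was above the NOD EpiSC (log2 fold change -1.29, SE 0.39, adjusted p = 0.0171).

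The other 3 calls came from 1 EpiSC line each. Col5a1 had 122 CPM in the 129 EpiSC and 10.4 in the NOD EpiSC (log2 fold change -2.37, SE 0.72, adjusted p = 0.0181). Col12a1 had 7 counts (53.5 CPM) in the 129 EpiSC and 0 in the NOD EpiSC, at least 12.5-fold above the floor of the iPSC (adjusted p = 0.0156, and 0.286 with DESeq2). The reverse was seen for Col10a1, with 16 counts (83.1 CPM) in the NOD EpiSC and 0 in the 129 EpiSC (log2 fold change -3.84, SE 0.94, adjusted p = 0.00408). All 7 members called against EpiSC overlapped between the groups. Leaving out an EpiSC line left 1 library in that group, so only effect sizes are given. Without the 129 EpiSC the log2 fold changes were -0.57 for Itgb1, -1.11 for Lamb1, -0.79 for Col4a1, -0.93 for Col9a3 and 0.08 for Col5a1. Each of these was weaker than with both lines. Without the NOD EpiSC the log2 fold change of Col10a1 turned to 1.85.

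Lama1, the alpha chain of laminin-111, had 0 to 192 CPM in iPSC and 5.19 and 30.6 CPM in the NOD and 129 EpiSC, and its log2 fold change of 2.49 (SE 1.06, adjusted p = 0.0828) missed the threshold. When the uniquely aligned pairs served as library size, the median of all genes moved from 0.10 to 0.64, and 6 members were called of which 3 (Lama1, Lamc1, Col6a4) were higher and 3 (Col10a1, Col12a1, Itgb1) lower in iPSC. Over all genes that setting called 1110 of 1435 higher, where the TMM scale called 448 higher and 681 lower. On the TMM scale, 10 of 18 members (55.6%) were called with strain as a covariate, beside 30.3% of all genes, and of these Lama1 and Lamc1 were higher. With no filter 15 were called (21.7%, beside 11.1% of all genes), and Lama1 was among 3 called higher. Whether Lama1 passed the threshold thus varied with the scaling, the model and the filter.

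**Figure D3:**
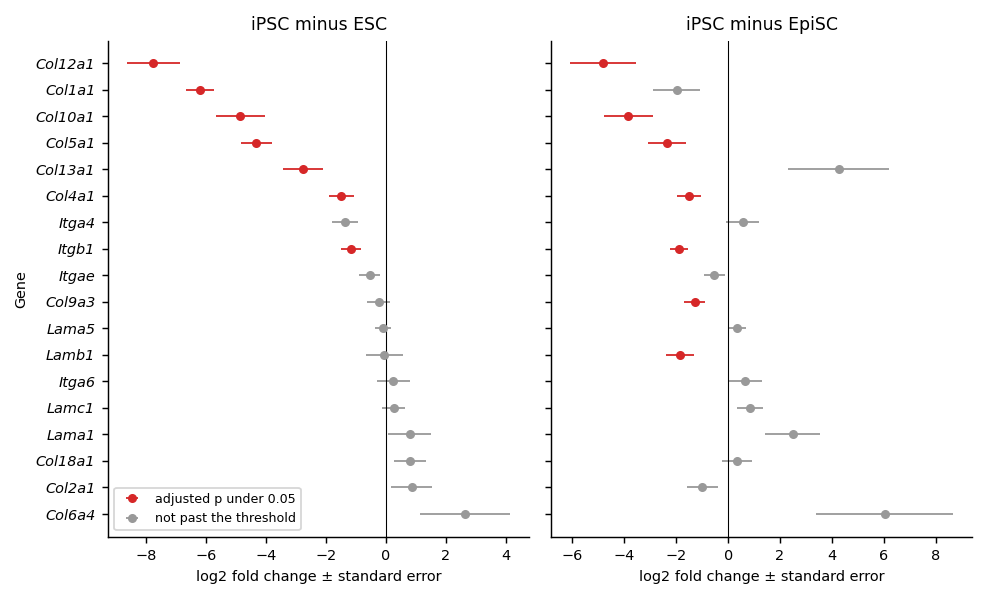
Log2 fold change with its standard error (horizontal axes) of the 18 tested members in iPSC against ESC (left) and iPSC against EpiSC (right), both from the same 12 iPSC. Red points passed an adjusted p of 0.05, 7 on each side and all of them below 0, and Col1a1 passed only against ESC, at -6.20.

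Between ESC and EpiSC 2 members were called, both higher in ESC, beside 15.1% of all genes, 6.85% higher and 8.23% lower. Col1a1 had 287 to 430 CPM in ESC and 22.9 and 15.6 CPM in the 129 and NOD EpiSC, a log2 fold change of 4.21 (SE 0.72, adjusted p = 0.000574). Col13a1 had 88.7 to 125 CPM in ESC and 0 counts in both EpiSC, which was at least 12.1-fold (adjusted p = 0.011). The groups were apart for both genes. Leaving out either EpiSC line raised the adjusted p of Col13a1 to 0.0682 or 0.0625. The median log2 difference was 0.51 over the 18 members and 0.06 over all genes. Itga4, an alpha chain that binds fibronectin, had 62.1 to 161 CPM in ESC and 25.96 and 30.6 CPM in EpiSC (adjusted p = 0.0654), and its exons overlap Cerkl on the opposite strand over 1124 bp.

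Laminin and integrin chains without a call between states are given by their levels. Lama5 had 113 to 305 CPM in iPSC, 151 to 248 in ESC and 130 and 183 in EpiSC, and Lamc1 had 92.2 to 467, 151 to 349 and 104 and 199 CPM. For both genes the 3 states overlapped. Itga6, an alpha chain of laminin receptors, had 10.1 to 136 CPM in iPSC, 26.6 to 60.4 in ESC and 15.3 and 51.9 in EpiSC. Itga5, the alpha chain of the fibronectin receptor, had 0 to 56.5 CPM in iPSC, 26.9 to 44.3 in ESC and 10.4 and 84.0 in EpiSC. Itgav, an alpha chain of receptors for vitronectin, had 5.08 to 43.0 CPM in iPSC, 35.5 to 40.3 in ESC and 25.96 and 61.1 in EpiSC. Itga3, another alpha chain of laminin receptors, had 0 to 71.1 CPM in iPSC, 0 to 33.6 in ESC and 0 and 122 in EpiSC. Itga3, Itga5 and Itgav were not tested for low counts. Col4a2 had 0 to 51.6 CPM in iPSC, 44.3 to 62.7 in ESC and 31.2 and 45.8 in EpiSC, and Col4a5, a collagen IV chain of the X chromosome, had 15 counts over all 19 libraries.

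Genes that work with these proteins were taken from 4 lists. Of 20 genes for collagen processing, 7 were tested, and Serpinh1, the collagen chaperone, and Plod2, a lysyl hydroxylase, fell in iPSC against both EpiSC (log2 fold changes -3.68 and -2.11) and ESC (-2.28 and -1.92). Lox, which crosslinks collagen, fell against ESC (adjusted p = 2.08e-06), with 48 counts in the 3 ESC, 1 in the 12 iPSC and 0 in the 2 EpiSC. Of 9 matrix partners 8 were tested. Tnc, a matrix protein of mesenchyme, had 45 counts in ESC, 14 in EpiSC and 0 in iPSC and was called lower in iPSC against both. Against EpiSC, Agrn also fell (-1.47) while the basement membrane genes Nid1 (3.42) and Hspg2 (1.09) rose. Of 14 effectors of integrin adhesion 5 were tested, and Ilk (-1.08) and Vcl (-1.36), which tie integrins to actin, fell and Fermt2 (1.36), an integrin activator, rose in iPSC against EpiSC, while 0 were called against ESC. Of 8 genes of matrix turnover 2 were tested, and Timp3, an inhibitor of matrix proteases, fell against EpiSC (-3.62) and ESC (-4.98). Against EpiSC, ESC were called higher for Nid1 (3.21) and Lox and lower for Ilk (-1.44).

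Culture medium was compared in the 129 male clones 1 and 17, in 2iS and in ESC/LIF, in a fit of the 12 iPSC over 3388 genes. Of 10 members tested, 2 were lower in 2iS and 0 higher, beside 4.10% of all genes, 2.77% lower and 1.33% higher. Col18a1 had 361 and 305 CPM in ESC/LIF (clones 1 and 17) and 35.0 and 82.9 CPM in 2iS, with a log2 fold change of -2.47 (SE 0.41, adjusted p = 0.000138). The values were apart, and the 129 female clones 5 and 8 in ESC/LIF had 234 and 366 CPM, while NOD and WSB iPSC in 2iS, NOD males left aside, had 60.6 to 181 CPM. NOD male clones 3 and 35, also in 2iS, had 252 and 160 CPM, so clone 3 lay above 129 female clone 5. Col6a4, the mouse chain that can replace Col6a3 in collagen VI, had 169 and 226 CPM in ESC/LIF and 8.75 and 0 CPM in 2iS, or 57 counts against 1. Its ratio of ESC/LIF over 2iS was 45.8 (95% counting interval 7.90 to 1841), and the edgeR test gave an adjusted p of 0.000237. In the 129 females Col6a4 had 149 and 45.8 CPM, and in NOD and WSB iPSC 0 to 54.1 CPM. Its exons overlap Gm36993 and Gm47575 on the opposite strand over 289 bp. With the clone as a block, in a fit of these 4 libraries alone over 2160 genes, both calls held and Col9a3 passed too (log2 fold change -1.40, adjusted p = 0.0268, against -1.34 and 0.0842 in the fit of 12 iPSC). The same 4 libraries without the block also called Col9a3 (-1.32, adjusted p = 0.00316), as did the fit with no filter (adjusted p = 0.0432). The 2iS cultures were at passage 30 and 31 and the ESC/LIF cultures at 20 and 21, so medium and passage cannot be told apart. Among the lists, Nid1 (1.80) and Loxl3 (0.94) rose in 2iS, as did 3 of the 8 naive markers, Klf4 (1.37), Tbx3 (1.34) and Tfcp2l1 (1.56).

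Strain was compared with the medium held at 2iS. In WSB against 129 males 2 of 10 members were called, both lower in WSB, beside 5.05% of all genes, 1.98% lower and 3.07% higher. Lamc1 had 157 and 111 CPM in WSB clones 12 and 25 and 402 and 467 CPM in 129 clones 1 and 17 (log2 fold change -1.63, SE 0.32, adjusted p = 0.00122). Lama1 had 27.1 and 10.1 CPM in WSB and 149 and 113 CPM in 129 (log2 fold change -2.58, SE 0.66, adjusted p = 0.0137). Both are chains of laminin-111 and neither overlapped between the strains. Lama1 missed the threshold without 129 clone 1 (-2.40), without WSB clone 12 (-3.56) or 25 (-2.23), each of which left 1 member called, and with DESeq2 (adjusted p = 0.084). The WSB clones were derived in 2iS and the 129 clones in ESC/LIF, and the WSB cultures were at passage 16 and the 129 cultures at 30 and 31, so strain, derivation and passage cannot be told apart. In this comparison the protease gene Mmp9 was the 1 listed pathway gene called, higher in WSB (adjusted p = 3.09e-05).

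In WSB against NOD females 1 of 10 members was called, beside 3.98% of all genes, 2.15% higher and 1.83% lower. Col2a1, the main chain of cartilage collagen, had 20.5 and 172 CPM in WSB clones 23 and 28 and 5.36 and 24.9 CPM in NOD clones 7 and 52 (log2 fold change 2.78, SE 0.76, adjusted p = 0.0285). The strains overlapped, and the call rested on WSB clone 28, without which the log2 fold change was 0.48 (adjusted p = 0.91) and 0 members were called. Of the listed genes, Mmp9 and Sparc (1.66) were called higher and Fn1 (-1.22) lower in WSB. Between female and male iPSC of WSB and 129, edgeR called 0 of 10 members, beside 1.68% of all genes, 1.15% higher and 0.531% lower, with 1 member (Col6a4) at an unadjusted p under 0.05 and 0 called by DESeq2.

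**Figure D4:**
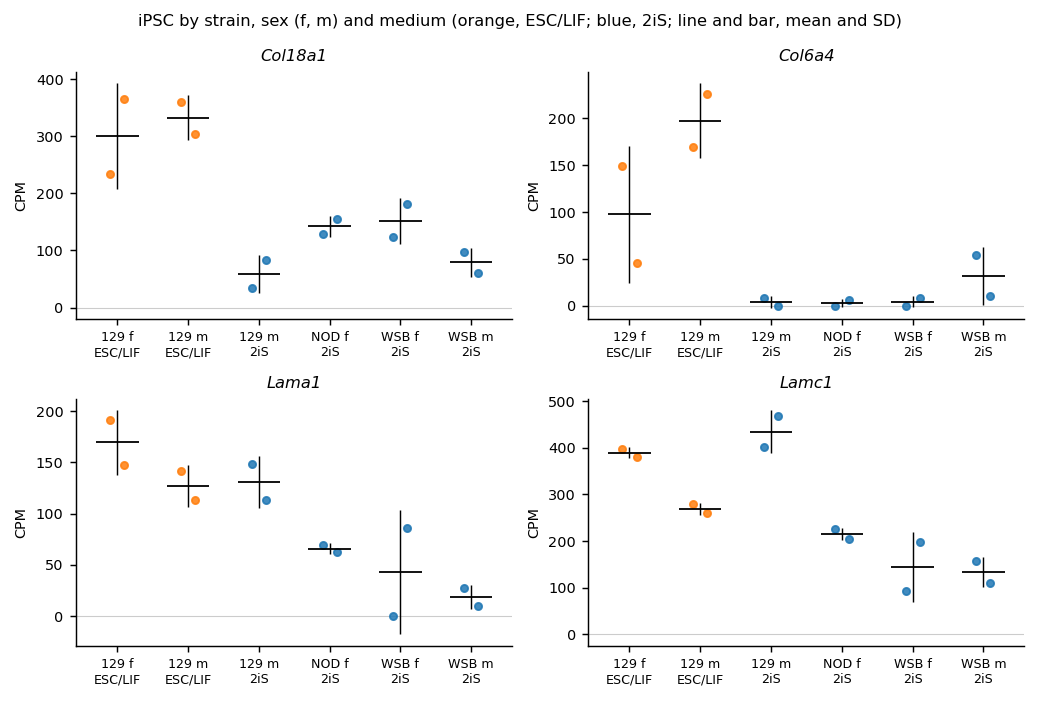
Level in CPM (vertical axes, linear) of Col18a1, Col6a4, Lama1 and Lamc1 in 6 iPSC groups of 2 clones each, in ESC/LIF (orange) or 2iS (blue), with the mean as a line and the SD as a bar. Col18a1 lies at 234 CPM or more in the 4 ESC/LIF libraries and at 181 CPM or less in the 8 libraries in 2iS shown. The NOD males in 2iS are not shown and had 252 and 160 CPM.

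NOD male iPSC differed from NOD females in 5 of 12 members tested, 3 higher and 2 lower, in a fit of 14 iPSC over 4457 genes in which 38.9% of all genes were called, 14.4% higher and 24.6% lower. Lama5 had 693 and 558 CPM in male clones 3 and 35 and 268 and 305 CPM in female clones 7 and 52, a log2 fold change of 1.22 (SE 0.24, adjusted p = 0.000112). Lamc1 had 359 and 368 CPM in males and 225 and 205 CPM in females (0.84, SE 0.26, adjusted p = 0.0112). Itgb5, a beta chain that pairs with Itgav, had 64.7 and 53.2 CPM in males and 21.4 and 18.7 CPM in females (1.61, SE 0.56, adjusted p = 0.0215). These 3 genes were higher in both males than in both females. Col9a3 went the other way, with 3.53 and 22.8 CPM in males and 107 and 411 CPM in females (-4.24, SE 0.51, adjusted p = 2.85e-08), as did Itgae with 14.1 and 6.08 CPM against 37.5 and 62.3 CPM (-2.09, SE 0.61, adjusted p = 0.00687). Exons of Col9a3 overlap those of Tcfl5 on the opposite strand over 234 bp. Genes with such overlaps took 38.3% and 38.8% of the counts in NOD males and 61.3% to 76.8% in the other 17 libraries. The part of this in the Col9a3 difference was not tested. The median log2 difference was 0.41 over the members and 0.18 over all genes.

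These values depend on the scale, since 5.59% and 5.62% of the aligned pairs fell on genes in the NOD males and 1.56% and 1.41% in the NOD females. Scaled to the uniquely aligned pairs (per 1000000), Lama5 had 58.3 and 47.6 in males and 4.19 and 4.16 in females, and the median log2 difference of all genes was 2.74. With that library size 15 of 18 members (83.3%) were called, 14 of them higher in males, beside 87.1% of the 7079 genes tested, Col9a3 stayed lower (-1.80) and Itgae turned to 0.30 (adjusted p = 0.641). On that scale the log2 fold changes of Lama5 (3.66), Itgb5 (4.03) and Lamc1 (3.28) lay above the median of 2.74 over all genes. Setting a gene against that median largely undoes the change of scale, so this is not a separate result. Without NOD female clone 52 only 2 members were called, Itgae (-1.67), Itgb5 (1.56) and Lamc1 (0.81) having missed the threshold, and Itgb5 was also lost without female clone 7 (1.75) or male clone 3 (1.43). With DESeq2 3 members were called, and Itgb5 (adjusted p = 0.229) and Lamc1 (adjusted p = 0.104) were not. The partner genes Fn1 (1.78), Agrn (1.27), Hspg2 (1.27), Dag1 (1.18), Sparc (1.13) and Nid2 (0.93) were called higher in NOD males, 6 of 7 tested, and the 12 fibroblast markers summed to 2568 and 3563 CPM there, of which Fn1 had a mean of 2911 CPM while Postn, Prrx1 and Ccdc80 were at 0. The other lists were split or had no call. Of 6 collagen processing genes tested, Glt25d1 (1.43) and P4hb (0.755) were higher and Loxl3 (-2.51) and Plod3 (-1.92) lower. Of 6 integrin effectors tested, Parvb (1.56) and Src (1.80) were higher and Ilk (-1.85) and Vcl (-0.88) lower. In the same comparison 6 of 8 naive markers and 3 of 4 general pluripotency markers were also called higher in NOD males, and the part of these shifts in the member values was not tested.

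**Figure D5:**
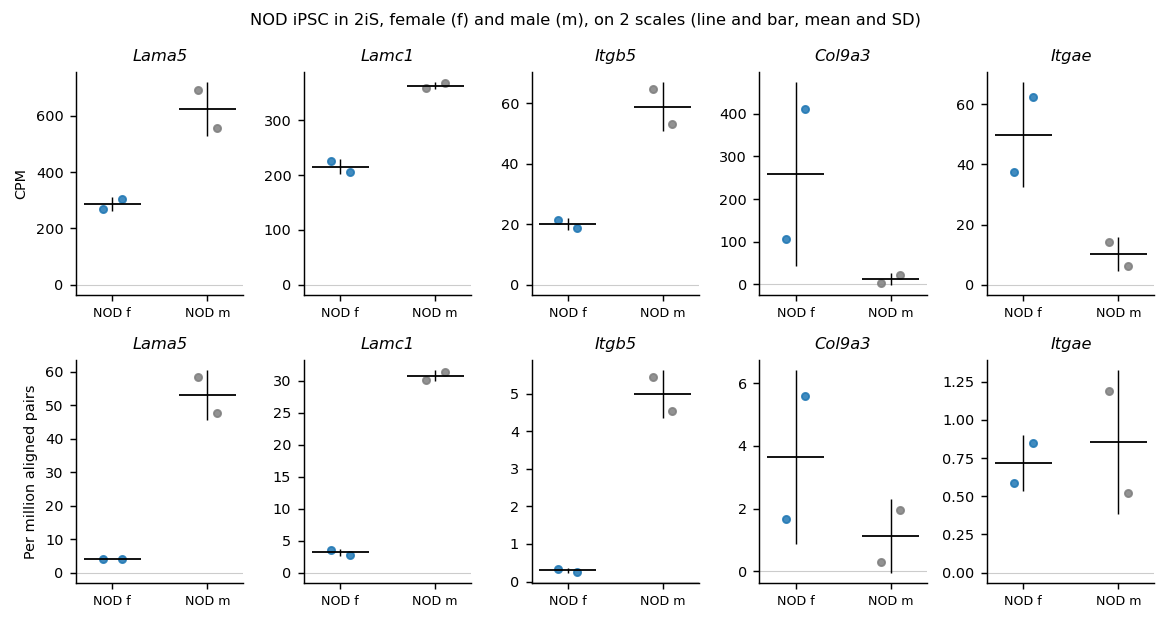
Levels of Lama5, Lamc1, Itgb5, Col9a3 and Itgae in 2 female (blue) and 2 male (grey) NOD iPSC clones, in CPM (upper panels) and per 1000000 uniquely aligned pairs (lower panels), with the mean as a line and the SD as a bar. Col9a3 is lower in males in the upper panels (3.53 and 22.8 against 107 and 411 CPM), and Itgae is lower in males in the upper panels only.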

How the data were processed

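RNA of 19 mouse stem cell cultures was made into stranded libraries and sequenced in read pairs. The authors trimmed the reads with Trimmomatic, aligned them to GRCm38 with TopHat2 2.1.1 and counted pairs per gene with HTSeq in intersection-nonempty mode, and the deposited values are raw counts per gene symbol for each library, with no normalization. The rows for pairs on no gene, ambiguous pairs and pairs of low quality or without a unique alignment were kept out of library sizes and tests. Conditions followed the titles.

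Counts were compared by the quasi-likelihood test of edgeR 4.0.16 under R 4.3.3, with TMM factors and the filterByExpr filter, over all genes that passed the filter, with a call at an adjusted p (Benjamini-Hochberg) under 0.05. The 3 cell states shared 1 fit of 17 libraries, medium, strain and sex 1 fit of 12 iPSC, and the NOD sexes 1 fit of 14 iPSC. CPM used the TMM library sizes of the 19 libraries. Alternatives were DESeq2 1.42.0, its size factors, no filter, aligned pairs as library size, genes without opposite-strand exons, other sets of iPSC, strain as covariate, the clone as a block, groups fitted alone, the conditions of the source names, and each library left out. Annotation was GENCODE M21 on GRCm38, matching 23055 of 23420 genes, 1278 by an older symbol. Bounds use a floor of 3 counts over a group, and intervals (scipy 1.17.1) and floors cover counting error only. Each fit was tested on simulated counts in which 200 genes were shifted by 2 on the log2 scale, of which 78% were recovered for iPSC against ESC, 69.5% against EpiSC and 41.5% for the medium. The simulation gave all genes the same fixed dispersion, not estimated from these data, so these shares need not hold for the real fits.

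Clones 1 and 17 are the same clones in both media by their titles, and the deviations of same-numbered libraries correlated at r = 0.0674 over 2160 genes. Members passing the threshold anywhere were named, with a set list of further chains and the members highest per kilobase. The members, marker lists and pathway lists were chosen with earlier results of these data known.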

Additional observations from a re-analysis of the deposited data

Results flagged for a closer look

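The difference between NOD male and female iPSC was itself compared with the mean difference between the sexes in WSB and 129 (in ESC/LIF), a contrast chosen after seeing the data and fitted with edgeR over 4457 genes, of which 1336 passed. For 3 of the 12 members tested the NOD difference departed from that of the other strains, a share no larger than that of all genes (1336 of 4457). Col9a3 was lower by a further -4.77 on the log2 scale (SE 0.61, adjusted p = 1.62e-07), with males lower in NOD and differences of 0.73 in WSB and 0.36 in 129. Lama5 differed by 1.53 (SE 0.34, adjusted p = 0.000535) and Lamc1 by 1.16 (SE 0.35, adjusted p = 0.0112). Each NOD group held 2 clones, and the NOD males stood apart in the share of pairs on genes, whose part in these values was not tested. They also stood apart in the share of counts on genes with opposite-strand exons. Col9a3 is such a gene, with 234 bp shared with Tcfl5, and the part of this was not tested either.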

How the results depend on the processing

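Of 300 alternative values for the 26 named gene results, 235 kept direction and call, 59 kept direction without passing the threshold and 6 changed sign. In iPSC against EpiSC the 7 members called became 3 with the groups fitted alone, 3 without genes that have opposite-strand exons, 4 with male iPSC only, 10 with strain as a covariate (2 of them, Lama1 and Lamc1, higher), 15 with no filter, and 2 to 8 leaving out 1 library. Against ESC the 7 (38.9% and 6.22%) became 4 with male iPSC only (23.5% and 5.16%) and 18 with no filter (26.1% and 3.57%). Without opposite-strand genes 4 were called (33.3% and 5.82%). That fit left out Col10a1, Col4a1 and Col5a1, and the calls of Col12a1, Col13a1, Col1a1 and Itgb1 held. Leaving out 1 library gave 4 to 6 (22.2% to 33.3%, beside 2.25% to 3.99% of all genes). Between ESC and EpiSC the 2 became 4 with aligned pairs as library size, 4 with 2iS iPSC only, 6 with no filter, 5 with strain as covariate, and 2 to 3 leaving out 1 library. With the conditions of the source names 0 members were called in each of these comparisons (2, 2 and 1 at an unadjusted p under 0.05). Over all genes the shares called were 0.222%, 0% and 0%. Under those names Col12a1 (5.79) and Col5a1 (2.20) against EpiSC and Itgb1 (0.056) against ESC changed sign. Col10a1 changed sign without the NOD EpiSC (between -4.74 and 1.85 leaving out either EpiSC line), Col5a1 without the 129 EpiSC (0.076, with -3.35 to 0.076 leaving out either EpiSC line) and Itgae in NOD with aligned pairs (0.30). For the medium the 2 became 1 without opposite-strand genes, 4 with no filter and 2 with any 1 library left out, and 3 with the clone as a replicate block, which lost no call. WSB against 129 males gave 1 with DESeq2 and 1 to 2 leaving out 1 library, WSB against NOD females 0 with DESeq2, 0 with groups fitted alone and 0 to 1, and female against male 0 to 1. In NOD the 5 became 3 with DESeq2 (25.0% of members tested and 24.4% of all genes) and 15 with aligned pairs (83.3% and 87.1%). They became 3 with groups fitted alone (21.4% and 24.8%). Without opposite-strand genes, a fit that left out Col9a3, 2 were called (22.2% and 15.9%). Apart from the genes left out of a fit, the cause of these shifts was not tested. With 3 counts equal to 13.2 CPM or more in 17 libraries, 63 members could not be tested between states, and where leaving out a library left 1 sample in a group, that sample was assumed to vary like the others.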
